A study of Mus musculus with 6 samples.

Results

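The genes examined were 10 transcription factor genes of the naive pluripotent state, namely Klf2, Klf4, Klf5, Esrrb, Nr5a2, Nr0b1, Tfcp2l1, Tbx3, Prdm14 and Zfp42. They were chosen by name, as factors known for naive pluripotency, and they are 10 of the 21853 protein-coding genes of the mouse annotation used. Earlier results of these data were known when they were chosen. For each gene, the H3K27ac peaks of control cells were looked up at the promoter, taken as 1 kb on either side of the transcription start site (TSS) of every isoform, in the gene body and within 100 kb of the gene. H3K27ac is the acetylation of lysine 27 of histone H3.

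The study asked whether histone acetylation depends on ongoing transcription, and measured H3K27ac by ChIP-seq in mouse embryonic stem cells (mESCs). Cells of the control group were given DMSO, the solvent, and the treated cells received for 2 h either NVP-2 (100 nM in the sample labels, with a different dose in another place of the study's text), which inhibits the elongation kinase CDK9, or actinomycin D (ActD, 800 nM in the sample labels), which binds DNA and blocks RNA polymerases. Each of the 3 groups had 2 replicates, with chromatin of human HEK293T cells added to every sample as a spike-in reference. The cells of every group came from a single line, E14Tg2A with the Rosa26-Cre and Oct4-IRES-Puro alleles, and were grown in N2B27 medium with LIF, the MEK inhibitor PD0325901 and the GSK3 inhibitor CT-99021, a culture that holds mESCs in the naive state. The treated libraries were not analysed here.

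The data analysed were 1 list of 22973 peaks, which the authors pooled over both control replicates. A peak has a start and an end in the mm10 genome and no height, so widths and positions can be compared and signal strength cannot. There is no replicate error, no test between conditions was made, and the sequencing depth behind a peak cannot be read from the list. A gene without a listed peak may have had no signal, a signal below the thresholds of the authors or a peak they removed for lying far from an ATAC-seq summit. The labelled cell type was checked at the promoters of Pou5f1, Sox2 and Nanog, the core pluripotency factors, which lay in peaks of 34.0, 19.7 and 36.0 kb.

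Naive pluripotency is the state of the epiblast before implantation, which mESCs keep when LIF activates Stat3 and when MEK and GSK3 are inhibited. The factors studied here form its ancillary network: they bind enhancers together with Oct4, Sox2 and Nanog, sustain each other's genes, and fall as cells leave the naive state for the formative and primed states. H3K27ac is laid down by the acetyltransferases CBP and p300 at active promoters and enhancers, and runs of closely spaced enhancers appear as broad acetylated domains.

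The promoters differed in base composition and in whether a peak covered them, and the following sequences show this range. Each holds the 250 bases before a RefSeq start site (GRCm38.p6, the same assembly as mm10), written 5′ to 3′ on the strand of the gene, and capitals mark matches to the motifs searched. The promoters of Klf2 (chr8:72318812-72319061, + strand) and Klf4 (chr4:55532476-55532725, - strand) are shown because both were rich in GC and CpG while only that of Klf2 lay inside a peak.
Klf2: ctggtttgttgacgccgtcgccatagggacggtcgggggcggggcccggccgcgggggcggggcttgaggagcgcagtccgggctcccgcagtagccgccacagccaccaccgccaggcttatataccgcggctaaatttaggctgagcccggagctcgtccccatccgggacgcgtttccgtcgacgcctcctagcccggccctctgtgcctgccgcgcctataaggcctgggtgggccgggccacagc
Klf4: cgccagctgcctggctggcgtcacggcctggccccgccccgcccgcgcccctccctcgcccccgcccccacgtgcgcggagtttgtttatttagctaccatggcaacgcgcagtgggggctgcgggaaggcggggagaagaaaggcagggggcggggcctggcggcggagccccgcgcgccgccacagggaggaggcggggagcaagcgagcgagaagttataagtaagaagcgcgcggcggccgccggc
The Klf2 bases were 71.2% GC with an observed to expected CpG ratio of 0.915, and all 250 were inside a peak. The Klf4 bases were 74.0% GC with a ratio of 0.941, and 0 of the 250 were inside a peak. Over the same 250 bases of all 32851 RefSeq promoters, the median was 52.4% GC, with a median CpG ratio of 0.373.

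Esrrb has several start sites, and 2 of its RefSeq promoters are shown because the distal site had no peak and the next had a short one. The distal sequence was at chr12:86360867-86361116 and the next at chr12:86421394-86421643, both on the + strand.
Esrrb, distal start: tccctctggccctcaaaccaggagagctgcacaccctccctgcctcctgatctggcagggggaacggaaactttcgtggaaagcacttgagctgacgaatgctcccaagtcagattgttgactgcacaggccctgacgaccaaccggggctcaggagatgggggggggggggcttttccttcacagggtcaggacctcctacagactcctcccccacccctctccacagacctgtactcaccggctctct
Esrrb, second start: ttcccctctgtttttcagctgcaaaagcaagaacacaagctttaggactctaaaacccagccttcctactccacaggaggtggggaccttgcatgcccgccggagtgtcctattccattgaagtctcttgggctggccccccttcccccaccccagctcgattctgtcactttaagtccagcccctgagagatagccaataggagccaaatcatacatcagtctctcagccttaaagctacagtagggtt
Neither sequence held a match to the motifs. The distal promoter was 60.8% GC with a CpG ratio of 0.264 and 0 bases inside a peak. The second promoter was 52.0% GC with a ratio of 0.188, and the last 30 bases before its start were inside a peak.

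The promoters of Tfcp2l1 (chr1:118627695-118627944, + strand), Nr5a2 (second RefSeq start, chr1:136953631-136953880, - strand) and Zfp42 (chr8:43307010-43307259, - strand) are shown because they held the motif matches found in this set. Each of these lay with all 250 bases inside a peak.
Tfcp2l1: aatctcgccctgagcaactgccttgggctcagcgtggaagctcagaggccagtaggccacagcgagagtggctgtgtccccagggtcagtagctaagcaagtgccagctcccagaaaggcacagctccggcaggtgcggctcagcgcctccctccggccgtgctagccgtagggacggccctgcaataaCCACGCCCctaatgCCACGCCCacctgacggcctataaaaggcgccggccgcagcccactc
Nr5a2: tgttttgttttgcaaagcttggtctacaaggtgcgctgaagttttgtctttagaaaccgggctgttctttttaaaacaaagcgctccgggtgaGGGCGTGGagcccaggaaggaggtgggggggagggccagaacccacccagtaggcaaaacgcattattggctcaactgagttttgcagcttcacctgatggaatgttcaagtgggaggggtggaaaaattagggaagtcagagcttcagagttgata
Zfp42: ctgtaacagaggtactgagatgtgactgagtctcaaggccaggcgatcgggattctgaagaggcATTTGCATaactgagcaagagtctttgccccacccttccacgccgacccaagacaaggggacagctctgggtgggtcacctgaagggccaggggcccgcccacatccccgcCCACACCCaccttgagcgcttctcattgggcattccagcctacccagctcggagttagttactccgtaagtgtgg
The capitals in Tfcp2l1 and Nr5a2 are Klf sites (CCACACCC or CCACGCCC on either strand), with 2 in Tfcp2l1 and 1 in Nr5a2. In Zfp42 the first run of capitals is the octamer bound by Oct4 and other POU factors (ATGCAAAT on either strand), and the second is a Klf site.

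RefSeq promoter sequences were matched for 7 of the 10 genes, with 9 sequences in all, and Klf5, Tbx3 and Prdm14 had no entry in the table used. Motifs were searched over the whole RefSeq entries of 300 bases, which hold the 250 bases before the start and the 50 that follow. A Klf site was held by 3 of these 9 entries and by 8.58% of all RefSeq promoter entries. The octamer was held by 1 of the 9 and by 1.74% of all promoters. The Esrrb and Nr5a2 site (TCAAGGTCA, 0.423% of all promoters), the Stat3 site (TTCCNGGAA, 1.15%), the Tcf/Lef site (ATCAAAG, 3.73%) and the Tfcp2l1 site (CCAG, any 6 bases, CCAG, 3.44%) were each found in 0 of the 9. Both strands were searched, and a match describes the letters in this window and not binding of a factor.

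Of the 10 genes, 9 had a peak at a promoter, compared with 51.0% of all protein-coding genes. The share of 90.0% has an exact 95% interval (Clopper-Pearson) of 55.5 to 99.7, and the share of all genes a Wilson interval of 50.4 to 51.7. These intervals cover counting error only and count each gene once, and the 10 genes are a chosen list and not a sample. The exception was Klf4.

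The promoter peaks of these genes were wide. Their widest promoter peaks measured 79196 bp at Klf5, 71785 bp at Tfcp2l1, 63012 bp at Esrrb, 50763 bp at Klf2, 34941 bp at Tbx3, 34711 bp at Prdm14, 23678 bp at Zfp42, 12013 bp at Nr0b1 and 10536 bp at Nr5a2. The median width was 34826 bp over the 10 promoter peaks of these genes, where Esrrb has 2, and 2066 bp over the 10223 peaks at promoters of any protein-coding gene. A promoter peak of at least 10 kb was present at 9 of the 10 genes and at 5.75% of all protein-coding genes. The peaks of Nr5a2 and Nr0b1 lay just above that limit. The peak at Klf5 ranked 4 of 22973 by width, that at Tfcp2l1 ranked 6 and that at Esrrb ranked 13.

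Peaks often ran past the whole gene. The gene body was wholly inside peaks at 7 of the 10 genes (Klf2, Klf5, Nr0b1, Tfcp2l1, Tbx3, Prdm14 and Zfp42), compared with 2.69% of all protein-coding genes. A peak overlapped the body at 9 of the 10, compared with 55.8%. Counting only peaks that did not reach the promoter windows of the gene, 2 genes, Esrrb and Nr5a2, had a body peak, compared with 19.3% of all protein-coding genes. The median length of the gene body was 13880 bp for the 10 genes and 17380 bp for all protein-coding genes.

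**Figure D1:**
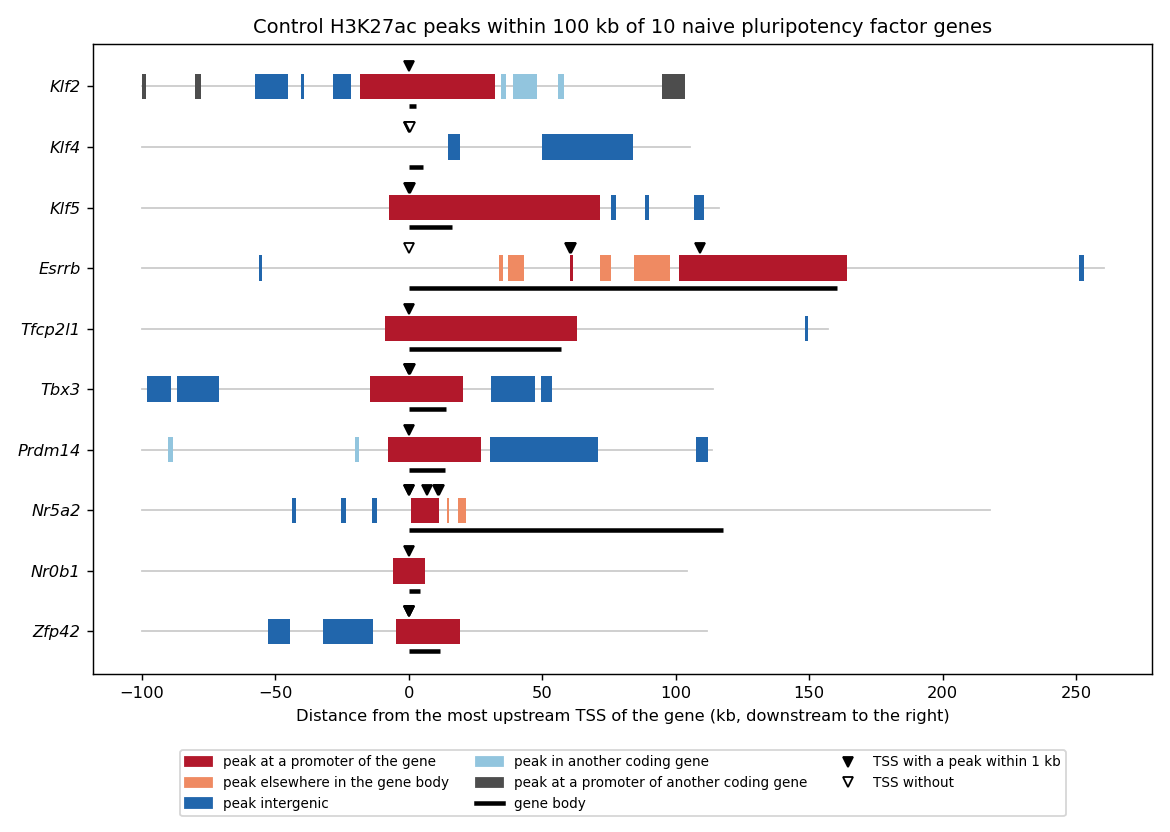
Each row is 1 gene and its neighbourhood, with distance in kb from its most upstream TSS and transcription drawn from left to right; coloured blocks are control H3K27ac peaks, black lines gene bodies, filled triangles TSSs with a peak within 1 kb and open triangles TSSs without. Wide red blocks run past the gene body at Klf2, Klf5, Tfcp2l1, Tbx3, Prdm14, Nr0b1 and Zfp42, the nearest block to Klf4 starts 14.7 kb downstream, and the open triangle of the first Nr5a2 TSS is hidden behind the next one.

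Within 100 kb, every one of the 10 genes had at least 1 peak, as did 82.8% of all protein-coding genes, and all 10 had a peak of at least 10 kb, as did 24.8%. The number of peaks was close to that of other genes, with a median of 4.5 and a range of 1 to 10, compared with a median of 4 over all protein-coding genes. When a peak was counted only for the gene with the nearest TSS, the medians were 3 and 1. The length covered was greater, with a median of 76.8 kb and a range of 12.0 to 95.01 kb, compared with a median of 10.4 kb and quartiles of 2.197 and 25.89 kb over all protein-coding genes. Of the 46 peaks near the 10 genes, 16 were at least 10 kb wide, whereas 7.51% of all 22973 peaks were that wide. By length, these 16 held 84.2% of the bases in the 46 peaks. Of the 436385 tiles of equal length that all peaks were cut into for the motif counts, 156398 lay in peaks that wide. Among protein-coding genes with the same number of peaks, 97.6 to 99.9% had a lower covered length than 9 of the 10 genes, and 52.2% had a lower one than Nr5a2.

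**Figure D2:**
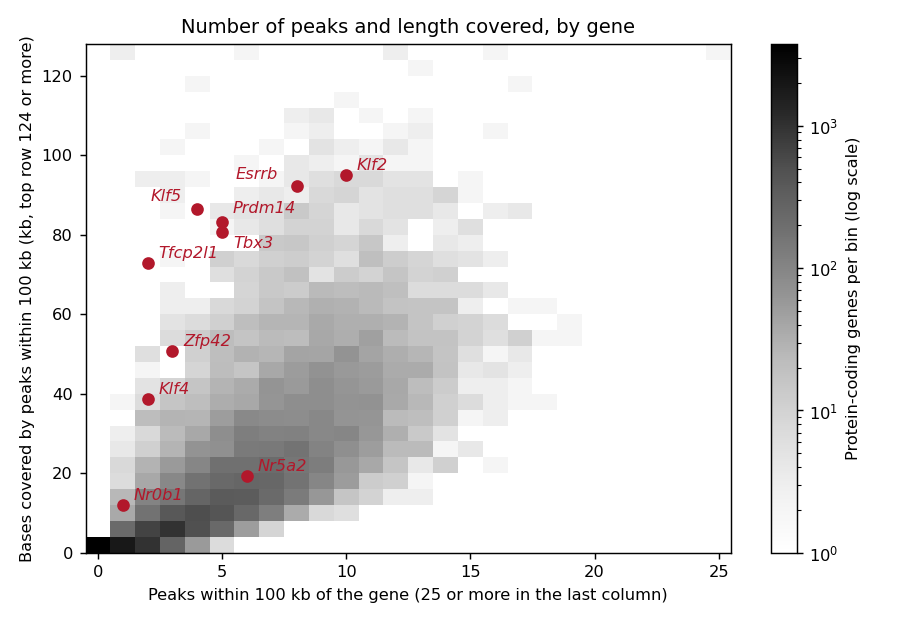
Peaks within 100 kb of a gene (horizontal axis) and the kb they cover (vertical axis) are shown for all 21853 protein-coding genes as grey bins, darker with more genes on a log scale, and for the 10 naive factor genes as red points. Tfcp2l1 with 2 peaks and Klf5 with 4 lie far above most genes with as many peaks, Nr0b1 with 1 lies above 97.6% of them at a low covered length, and Nr5a2 with 6 lies among them.

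The surroundings of these genes held few other genes. For 7 of the 10, no other protein-coding TSS lay within 100 kb, as for 7.39% of all protein-coding genes. Among the 1614 protein-coding genes with no neighbour at that distance, a median of 1.264 kb was covered within 100 kb, with a median of 1 peak. The exceptions were Klf2, with 4 other genes, and Nr0b1 and Tfcp2l1, with 1 each. Of the 46 peaks, 10 were at a promoter of the 10 genes, 6 elsewhere in their bodies and 22 between genes, while 5 were in bodies and 3 at promoters of other protein-coding genes. Of all 22973 peaks, 10223 were at a promoter of a protein-coding gene, and the other classes were not counted over all peaks. The nearest protein-coding TSS was that of the naive factor gene for 36 of the 46.

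Klf2, Klf4 and Klf5 encode zinc finger factors that bind GC-rich CACCC-type sites and can stand in for one another in mESC self-renewal. Klf2 (chr8:72319033-72321656, + strand) had the greatest covered length of the 10 genes, 95.01 kb in 10 peaks, and 99.3% of protein-coding genes had less. Its promoter peak of 50.8 kb (rank 28) began 18364 bp upstream of the TSS and ended 32.4 kb downstream of it, which took in the whole gene of 2.62 kb and the promoter of Gm10282. Downstream it also reached into Eps15l1, and 3 further peaks lay in the body of that gene and 1 of 8.45 kb at its promoter. Upstream, peaks of 12.2, 1.33 and 6.71 kb lay between genes, and the 2 peaks farthest out lay at the promoters of Ap1m1 and Fam32a. The covered length divided into 42.2 kb upstream, 2.62 kb in the body and 50.2 kb downstream. Which of these genes a peak serves was not tested.

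Klf5 (chr14:99298691-99315036, + strand) had the widest promoter peak of the 10 genes, 79.2 kb, which began 7.37 kb upstream of the first TSS and ended 71.8 kb downstream of it. Both of its TSSs lay inside this peak. The body of 16.3 kb was wholly covered, and 62.9 kb of the 86.6 kb covered lay downstream, where no other protein-coding gene starts within 100 kb. A further 3 peaks, of 1.94, 1.81 and 3.64 kb, followed in the same direction.

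Klf4 (chr4:55527143-55532466, - strand), which responds to LIF and Stat3 and is known as a reprogramming factor, differed from Klf2 and Klf5. Its 3 TSSs lay 14.1 to 14.7 kb from the nearest listed peak, and no peak touched its body of 5.32 kb. Both peaks near it were downstream of the gene: 1 of 4.54 kb at 14.7 to 19.3 kb from the first TSS, and 1 of 34.1 kb (rank 122) at 49.9 to 84.0 kb. Together they covered 38.6 kb, more than at 85.7% of protein-coding genes. Klf4 was thus the 1 gene of the 10 whose H3K27ac, as listed, was entirely distal.

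The tile of the wider Klf4 peak with the most kinds of motif, of all consecutive tiles of 200 bases, is shown because no peak marked the promoter itself. It lies at chr4:55462893-55463092, 69.5 kb from the first TSS, and is written on the + strand.
Klf4, distal peak: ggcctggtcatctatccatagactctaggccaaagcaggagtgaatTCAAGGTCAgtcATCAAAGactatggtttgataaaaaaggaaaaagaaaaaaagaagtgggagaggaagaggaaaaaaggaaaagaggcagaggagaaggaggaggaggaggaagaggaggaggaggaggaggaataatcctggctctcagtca
The capitals mark an Esrrb and Nr5a2 site followed by a Tcf/Lef site, the letters bound by the GSK3-responsive factor Tcf7l1 and its relatives. The share of tiles in other peaks that held as many kinds was not counted.

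Esrrb, Nr5a2 and Nr0b1 belong to the nuclear receptor superfamily. Esrrb, an orphan receptor that binds as a monomer to an extended site and is repressed by Tcf7l1 unless GSK3 is inhibited, had 92.3 kb covered within 100 kb of its body (chr12:86361117-86521628, + strand), more than at 99.2% of protein-coding genes. In contrast to the Klf genes, 85.6 kb of this lay inside the gene, which is 160.5 kb long and was 53.34% covered. Introns held 80.4 kb of the covered body and exons 5.2 kb. The upstream and downstream flanks held 0.947 and 5.73 kb.

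The start sites of Esrrb differed. The most upstream TSS lay 33.7 kb from the nearest peak. The TSSs at 86421644 and 86421883 lay in a peak of 1183 bp, the narrowest promoter peak of the 10 genes and the richest in GC, with 62.0%. The TSS at 86470117 lay in the peak of 63.0 kb (rank 13), which ran from 101.2 to 164.2 kb from the first TSS and past the end of the gene. Between the short and the long peak, further body peaks of 4.24 and 13.4 kb followed, and 2 of 1.7 and 5.72 kb lay upstream of the short one. With the longest isoform alone, whose TSS is the most upstream, the Esrrb promoter would count as unmarked.

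The tile below is shown because it held 3 of the motif kinds, the most of any tile in the peaks of at least 10 kb near the 10 genes. How often tiles of other peaks held as many kinds was not counted. It lies in an intron of Esrrb at chr12:86504486-86504685, inside the peak of 63.0 kb and 143.5 kb from the first TSS, on the + strand.
Esrrb, intron: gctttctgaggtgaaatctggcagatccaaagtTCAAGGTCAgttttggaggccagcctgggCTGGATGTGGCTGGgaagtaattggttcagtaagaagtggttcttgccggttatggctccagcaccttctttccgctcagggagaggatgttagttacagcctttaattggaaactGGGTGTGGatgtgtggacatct
The capitals mark, in order, an Esrrb and Nr5a2 site, a Tfcp2l1 site and a Klf site.

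Nr5a2 (chr1:136842571-136960448, - strand), a receptor known as Lrh-1 that binds the same kind of site as Esrrb and acts upstream of Oct4, had much less. Its peaks covered 19.3 kb within 100 kb, more than at 66.6% of protein-coding genes, in 6 peaks. Of its body of 117.9 kb, 12.09% was covered, at its 5′ end. The promoter peak of 10.5 kb began 1033 bp downstream of the first TSS, which was thus just outside the promoter window, while the next TSS, 965 bp from the peak, was just inside. The other 3 TSSs lay in the peak, so that 4 of 5 counted as marked. Upstream of the gene, 3 peaks of 1.52 to 1.83 kb lay between 11.9 and 43.5 kb from the first TSS, and there was no peak in the 100 kb downstream.

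Nr0b1 (chrX:86191764-86195947, + strand), also known as Dax1, lacks the usual receptor DNA-binding domain and interacts with Nr5a2 and Oct4. It had 1 peak within 100 kb, of 12.0 kb, which extended 5.98 kb upstream of the TSS, covered the body of 4.18 kb and ended 1.85 kb past it. The covered length exceeded that of 53.4% of protein-coding genes, the lowest share among the 10. Nr0b1 and Nr5a2 were the 2 genes whose covered length lay inside the quartiles of all protein-coding genes.

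Tfcp2l1, Tbx3, Prdm14 and Zfp42 belong to other families. Tfcp2l1 (chr1:118627945-118685168, + strand), a grainyhead-like factor and a main target of LIF and Stat3, lay in a single peak of 71.8 kb that began 8.74 kb upstream of the TSS and ended 63.0 kb downstream of it. The peak covered the body of 57.2 kb completely, 48.0 kb of it intron. Another peak of 1.05 kb lay 148.4 kb from the TSS. The total of 72.8 kb exceeded that of 97.5% of protein-coding genes, with fewer peaks than the median gene.

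Tbx3 (chr5:119670669-119684724, + strand), a T-box factor linked to PI3K signalling in mESCs, had 5 peaks covering 80.7 kb. Its 3 TSSs lay in the central peak of 34.9 kb (rank 112), and peaks of 9.0 and 15.9 kb upstream and of 16.5 and 4.37 kb downstream lay between genes. The flanks held 39.4 kb upstream and 27.3 kb downstream, compared with 14.1 kb in the body. No other protein-coding gene starts within 100 kb.

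Prdm14 (chr1:13113457-13127163, - strand), a PR domain protein that represses FGF receptor signalling and de novo DNA methylation, had a promoter peak of 34.7 kb (rank 113). A wider peak of 40.5 kb (rank 65) lay between genes, from 30.4 to 70.9 kb downstream of the TSS. These 2 peaks made up most of the 83.1 kb covered. Of the other 3, which were 1.45 to 4.54 kb wide, 2 lay in the body of Ncoa2.

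Zfp42 (chr8:43295063-43306980, - strand), also known as Rex1, is a zinc finger protein whose expression is used as a marker of the naive state. Its 3 TSSs lay in a promoter peak of 23.7 kb (rank 310), and peaks of 18.9 and 8.1 kb lay upstream between genes. The flanks held 31.5 kb upstream and 7.21 kb downstream, and the total of 50.6 kb exceeded that of 91.8% of protein-coding genes.

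**Figure D3:**
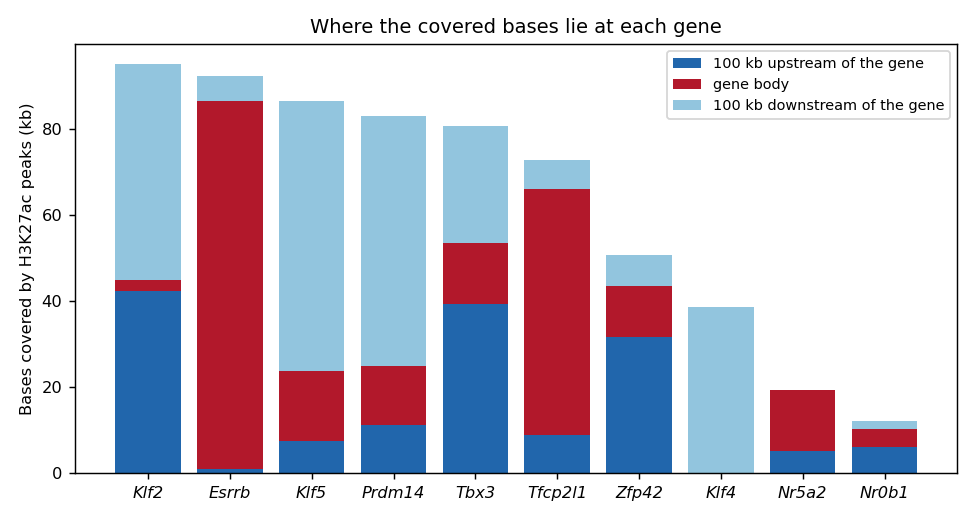
Stacked bars show, for each of the 10 genes in order of total, the kb covered by control H3K27ac peaks in the 100 kb upstream, in the gene body and in the 100 kb downstream. Esrrb, Tfcp2l1 and Nr5a2 have most of their covered bases in the body, and Klf2, Klf5, Prdm14 and Klf4 have most downstream. Klf2, Tbx3 and Zfp42 each have over 30 kb upstream.

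The side on which the covered bases lay differed among the genes. Of the flanks, the downstream one held more at Klf2, Klf4, Klf5, Esrrb and Prdm14, and the upstream one at Tfcp2l1, Tbx3, Nr5a2, Nr0b1 and Zfp42. The body held more than either flank at Esrrb (85.6 kb), Tfcp2l1 (57.2 kb) and Nr5a2 (14.3 kb). A common layout was therefore not seen.

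Peaks at most 10 kb apart were also joined into domains. At 8 of the 10 genes, a domain of at least 20 kb touched the promoter or the body, as at 11.6% of all protein-coding genes, and the exceptions were Klf4 and Nr0b1. The longest was that of Esrrb, 103.7 kb with 4 peaks, which ranked 21 of 16910 domains by length. The domains of Klf2 (86.5 kb, 5 peaks), Klf5 (85.0 kb, 2 peaks), Prdm14 (78.7 kb, 2 peaks) and Tfcp2l1 (71.8 kb, 1 peak) ranked 40, 43, 55 and 78. Those of Zfp42 (51.4 kb), Tbx3 (34.9 kb) and Nr5a2 (20.6 kb) ranked 218, 563 and 1441, the last being just above the limit.

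A wide peak can belong to several genes. Of the 9 promoter peaks of at least 10 kb at these genes, 8 overlapped the promoter of no other protein-coding gene, and that of Klf2 was the exception. Over all 986 promoter peaks of that width, 79.0% overlapped the promoter of a single protein-coding gene. The naive factor genes were thus close to the background in this respect.

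Motifs were counted in consecutive tiles of 200 bases over the peaks. The Esrrb and Nr5a2 site was in 1.34% of the 3135 tiles in peaks near the 10 genes (42 tiles), in 0.94% of the tiles in all peaks of at least 10 kb and in 0.858% of the tiles in all peaks. Counted as matches over whole peaks, 10 lay near Esrrb, 9 near Prdm14, 8 near Klf2 and 4 each near Klf5 and Tfcp2l1. A further 3 lay near Klf4, 2 each near Tbx3 and Zfp42, 1 near Nr0b1 and 0 near Nr5a2. These counts were not divided by the covered length, which was 92.3 kb at Esrrb, 80.7 kb at Tbx3 and 19.3 kb at Nr5a2. The Klf site was in 3.64% of the tiles near the 10 genes and in 3.94% of all tiles, and the octamer in 1.05% and 1.07%. The Stat3 site was in 0.702% and 0.714%, the Tcf/Lef site in 3.16% and 3.04%, and the Tfcp2l1 site in 1.66% and 2.32%. Tiles of a locus share their sequence context, and the differences were not tested.

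The median GC content was 47.7% over the 10 promoter peaks, 46.9% over all peaks of at least 10 kb and 49.5% over all peaks. Among the promoter peaks at least 10 kb wide, Nr0b1 had the lowest GC content, 41.4%. The short Esrrb peak described above had the highest of the 10.

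The 10 genes were set beside 3 other lists. In 14 other factors of the pluripotency network, such as Pou5f1, Sox2 and Nanog, 13 promoters were marked (Sall4 was the exception), 7 bodies were wholly covered and 8 genes had a promoter peak of at least 10 kb. The median covered length within 100 kb was 46.87 kb, and the range reached 119.9 kb at Nanog. In 14 genes of the formative and primed states, 11 promoters were marked, 2 bodies were wholly covered, 5 genes had a wide promoter peak and the median covered length was 19.04 kb. Fgf5, Pou3f1 and Sox3, which mark cells leaving the naive state or neural fate, had no promoter peak.

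In 47 paralogues of the 10 genes, 28 promoters were marked and 7 genes had a wide promoter peak. A wholly covered body was found in 0 of 47, which allows a share of up to 6.38% by a limit of 3 counts. The median covered length was 13.61 kb, close to that of all protein-coding genes. Listed in this order, the naive factors, the other network factors, the formative and primed genes and the paralogues thus had medians of 76.8, 46.87, 19.04 and 13.61 kb, with ranges that overlapped. The differences between lists were not tested, since the genes were chosen by name and the list of peaks has no replicates. Earlier results of these data were also known when the lists were made.

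**Figure D4:**
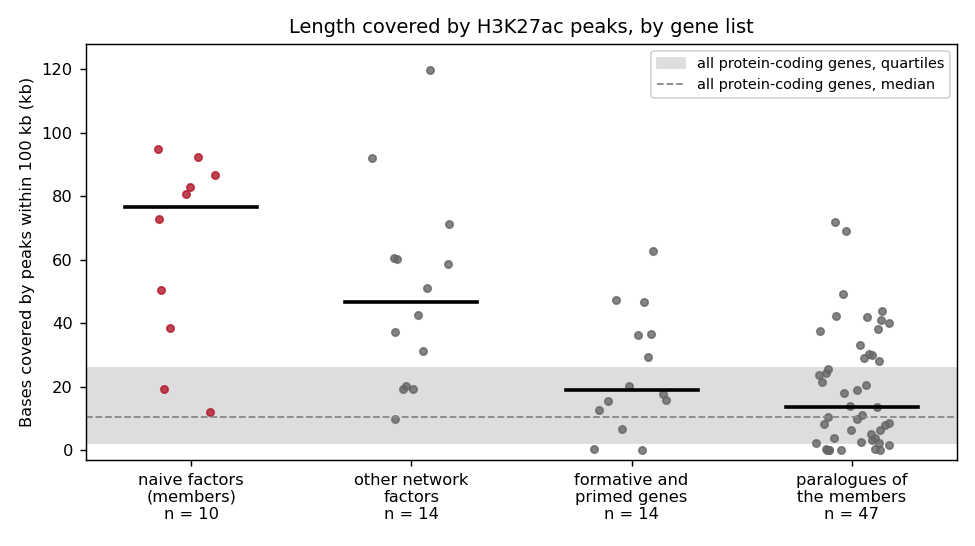
Points show the kb covered by control H3K27ac peaks within 100 kb of each gene (vertical axis) for the 10 naive factors and 3 comparison lists, with black bars at the medians and, for all protein-coding genes, the quartiles as a grey band and the median as a dashed line. Of the 10 naive factors, 8 lie above the grey band, and Nr5a2 and Nr0b1 lie inside it.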

How the data were processed

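H3K27ac ChIP-seq was made in 6 mESC samples, 2 each of control, NVP-2 and ActD. Per the methods, the authors trimmed reads with Cutadapt, aligned them with bwa meme to the mouse (mm10) and human genomes together, removed duplicates (Picard 2.9.1) and poorly mapped reads (SAMtools 1.4), called peaks with LanceOtron, merged peaks within 2 kb of each other, subtracted input, and dropped weak peaks as well as those that lay far from an ATAC-seq summit. The merging bears on widths, since a wide peak can join several. The deposited file gives positions in base pairs, and its first base was counted as 1.

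Peaks were intersected (1 bp or more) with TSSs of protein-coding transcripts of protein-coding genes in GENCODE M21 on the same assembly, an earlier release than that of the authors. Peaks at most 10 kb apart were joined into domains of which those of at least 20 kb were counted. Lengths are bases covered within 100 kb of a gene body. A percentile is the share of protein-coding genes with a lower value. Promoter sequences came from RefSeq (GRCm38.p6). Intervals are 95%. The members and lists were chosen with earlier results of these data known. All 10 members are named, with genes whose promoters share their peaks. The report names up to 4 genes per comparison list, and the closing observations name more of the paralogues. These, and Eps15l1, Ap1m1, Fam32a and Ncoa2, were named after their values were seen. The functions recovered all 2000 artificial genes in simulated data. Alternatives were other windows, isoforms, radii, peak widths, overlaps and joining distances, and genes with lincRNA. Of these, transcripts of every type were chosen after seeing the data. The treated libraries were not analysed here. Python 3.11.15, numpy 2.4.6, pandas 2.3.3, scipy 1.17.1, pysam 0.24.0 and matplotlib 3.10.9 were used.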

Additional observations from a re-analysis of the deposited data

How the results depend on the processing

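The count of 9 marked genes was unchanged with promoter windows of 500 bp or 2 kb, with the TSS base alone, with peaks of at least 1 kb, with an overlap of at least 500 bp and with transcripts of every type, an alternative added after the data were seen. It was 7 with the longest isoform of each gene alone, without Esrrb and Nr5a2. The share of all protein-coding genes, 51.0%, was 51.9% with the 2 kb window, 47.7% with the TSS base, 48.8% with the longest isoform, 45.6% with peaks of at least 1 kb, 49.6% with the larger overlap, 51.8% with every transcript type and 43.6% with lincRNA genes added. The count of 9 genes with a body peak was 2 for peaks outside the promoter windows of the gene, where 19.3% of all protein-coding genes had one. The median of 4.5 peaks was 3 at 50 kb, 6 at 200 kb and 3 for peaks nearest to the TSS of the gene, where all protein-coding genes had medians of 2, 7 and 1. The median covered length ranged from 61.22 to 81.43 kb over the other radii, anchors and peak sets tried, where all protein-coding genes ranged from 0.919 to 21.1 kb, and from 72.83 to 80.72 kb with 1 gene left out. The count of 8 genes with a long domain was the same with joining at 5 and 20 kb, where 5.26% and 25.8% of all protein-coding genes had one. No paired analysis was possible because the file pools both control replicates. For the same reason, no replicate could be left out. Peak height, depth and change with treatment were not examined here, and which gene a distal peak serves was not tested.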

Other observations

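Among the closest relatives of the 10 genes, H3K27ac was listed unevenly. Of the 14 Klf paralogues, 12 had a promoter peak, up to 25.2 kb wide at Klf9, and the exceptions were Klf14 and Klf17. The median length covered within 100 kb was 33.2 kb for these 14. Of the 13 Prdm paralogues, 9 had a promoter peak and the median was 9.73 kb. Of the other estrogen-related receptors, Esrra had a promoter peak of 2.98 kb, and Esrrg had no peak within 100 kb. Nr5a1 and Nr0b2, the relatives of Nr5a2 and Nr0b1, had no promoter peak. Of the relatives of Zfp42, Yy1 had a promoter peak of 7.24 kb and Yy2 none. Of the 12 Tbx paralogues, 3 had a promoter peak, none wider than 0.679 kb, and 4 had no peak within 100 kb. The length covered ranged from 0 to 33.3 kb among them, with a median of 1.94 kb. Tfcp2 and Ubp1, relatives of Tfcp2l1, had promoter peaks of 1.56 and 3.15 kb. These genes were named after their values were seen.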
